A study of Bos grunniens with 3 samples.

Results

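The genes that build cell junctions were followed in skin and hair follicles of the Tianzhu white yak by single-cell RNA sequencing. Members were taken by symbol alone, as every claudin (*CLDN*), desmoglein (*DSG*), desmocollin (*DSC*), plakophilin (*PKP*), connexin (*GJA*, *GJB*, *GJC*), cadherin (*CDH*) and zonula occludens gene (*TJP*) on the gene list, together with *DSP*, *JUP*, *PERP* and *CTNND1*, and with *CDH5* left out. This gave 71 of 26924 genes, 15765 of which carry a symbol. They comprise 23 cadherins and their partner *CTNND1*, 18 claudins, 16 connexins, 6 desmosomal cadherins, 6 genes of the desmosomal plaque with *PERP*, and the zonula occludens genes *TJP1* and *TJP3*. *OCLN* and *F11R*, which the rule also names, have no row under those symbols on the gene list, and neither have *CLDN3*, *CLDN11*, *DSC3*, *PKP3* and *GJB6*, so they were not analysed here.

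Junctions hold epithelial sheets together and seal them. Desmosomes tie keratin filaments of neighbouring keratinocytes together through desmogleins and desmocollins, which bind plakoglobin, plakophilins and desmoplakin on the inner face of the membrane, and adherens junctions do the same for actin through classical cadherins and catenins. Claudins set the tightness of tight junctions, and connexins form gap junction channels through which small molecules pass. In skin the desmosomal cadherins are known to change between the basal layer, the layers above it and the hair.

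The samples were scapular skin of yaks about 2 years old. There was 1 10x Genomics library in anagen (hair growth), 1 in catagen (regression) and 1 in telogen (rest). In the study's methods, hair follicles were pulled from the skin after enzyme digestion and then taken apart with trypsin. The labels call the animals healthy and name no treatment, and the study's methods do not tie animals to libraries. The published study covers anagen and catagen and reports no telogen sample, so its methods are not stated for the telogen library. The protocol text of the catagen library names anagen, so its stage rests on its title and stage label. With 1 library per stage no spread between animals can be given, stage and library cannot be told apart, and every interval below is a 95% interval for counting error only.

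The libraries held 12000, 12124 and 14573 cells with 82862998, 51647865 and 103511775 unique molecular identifiers (UMIs, 1 per captured RNA molecule), in the order anagen, catagen and telogen, which is the order of all triplets of values below. Only cells in which 200 or more genes were detected entered the analysis (11987, 12062 and 14502), with medians of 5256, 3350 and 5583.5 UMIs. The anagen library begins at 2404 UMIs per cell and the others at 500, and between 40 and 49 cell barcodes were shared by each pair of libraries. Levels are in CPM, the UMIs of a gene divided by all UMIs of a group of cells and scaled to 1000000. Levels were compared between groups of cells and not between genes, since no gene lengths were at hand. Over a whole library, fewer cells of a type and less RNA of a gene per cell cannot be told apart.

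Cells of the 3 libraries were clustered together, with the junction genes left out of the genes used for clustering, and clusters were named from fixed markers. The classes compared were basal-like cells (683, 936 and 759 cells, led by *KRT15* among the markers), suprabasal-like cells (1653, 1171 and 1077, *KRT1* and *KRT10*), inner-root-sheath-like cells (579, 250 and 145, *KRT71* and *KRT27*), cortex-like cells (427, 231 and 163, *KRT85* and *KRT35*), and cells with *LHX2* and *SPARC* (1241, 2805 and 1441), which the study calls hair shaft. Smaller or cycling classes were mitotic-like, S-phase-like, sebaceous-like and immune-like cells and keratinocyte-like cells with *SPINK9* and kallikreins. The keratinocyte-like cells also had the companion layer keratin *KRT75* among their leading genes. Their summed companion-like markers were 26184, 22634 and 16023 CPM, beside 26140, 24422 and 34270 CPM for the markers that named them. Whether they are companion layer cells was not tested. Cluster 21 (85, 104 and 37 cells) passed the naming rule as dermal-sheath-like, but *TAGLN* alone gave 3693, 5098 and 5299 CPM of a summed marker level of 3985, 5308 and 5529.6, and *COL3A1* was at 0 in each library, so these are called *TAGLN* *ACTA2* cells here. Clusters without a name held 39.3%, 44.4% and 65.6% of the cells.

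Free RNA in the droplets gives every cell some UMIs of abundant genes. Cluster 22 (99, 51 and 52 cells) was taken as a rough guide to that level. Over all libraries it is led by *COL1A2* and *PECAM1*, genes of fibroblasts and vessels. The epidermal keratin *KRT1* still stood there at 1262, 159.9 and 930.1 CPM, against 17692, 20478 and 29965 in suprabasal-like cells. Cortex-like cells held 453, 260 and 688 CPM of *KRT1*, less than cluster 22 in anagen and telogen, so cluster 22 can overstate free RNA. Its cells also differed between libraries. *PECAM1* stood at 1266, 1421 and 1620 CPM, but *COL1A2* at 5040, 97.7 and 817 and summed melanocyte markers at 4.16, 4228 and 149. Junction genes that vessels or fibroblasts can make themselves, such as *CDH13*, are not read this way. *GJA1* stood lower in basal-like cells than in cluster 22 in each library, and whether its level in cluster 22 is background was not tested. With 99, 51 and 52 cells, low levels in cluster 22 rest on few UMIs.

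By level, 21 members are described one by one: 17 reached 20 CPM in a whole library, and *CLDN19*, *GJB2*, *CLDN10* and *DSG4* reached 50 CPM in a class of cells. The remaining 50 stood at 15.963 CPM or less in each library, 10 of them without a UMI in any library, 23 with at most 25 UMIs in any library and 17 above that. All 6 desmosomal cadherins were among the 21, against 4 of 18 claudins and 2 of 16 connexins. The plot of levels by library shows the 21 genes side by side.

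**Figure D1:**
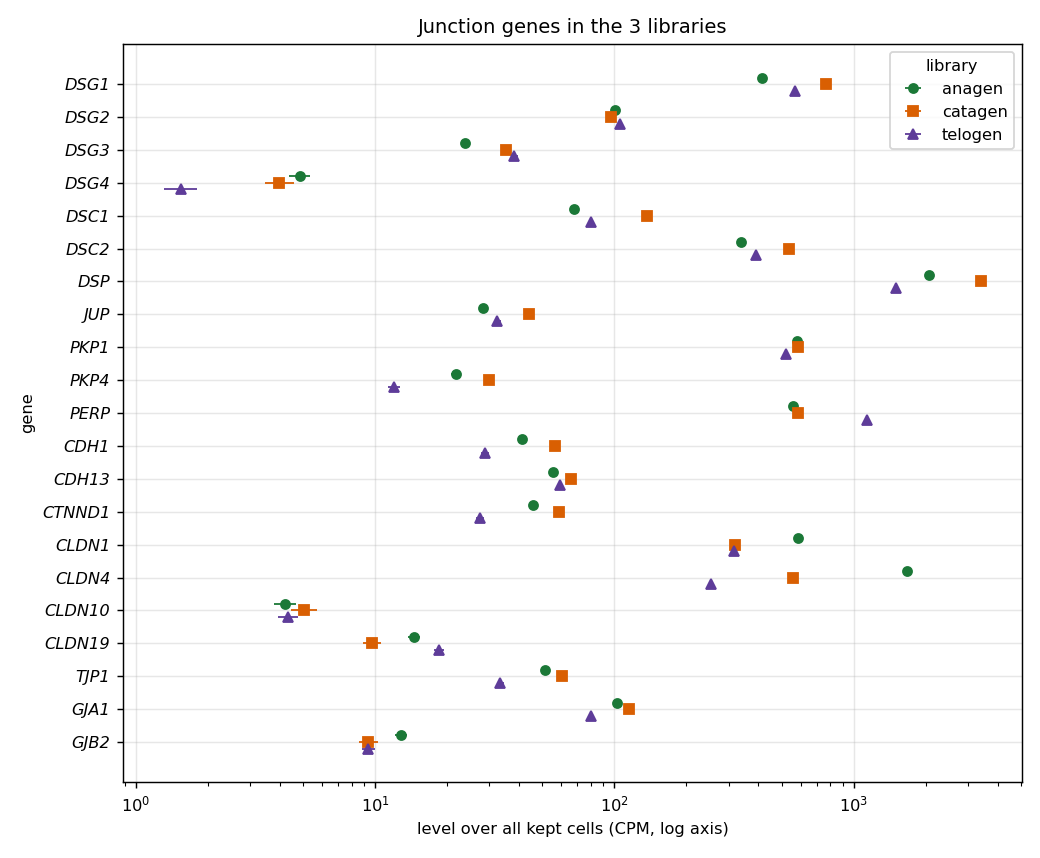
Level of 21 junction genes over all kept cells of the anagen, catagen and telogen library, in CPM on a log axis, with 95% Poisson intervals as bars (mostly shorter than the symbols). *CLDN4* stood at 1675, 556 and 254 CPM and *PERP* at 556, 586 and 1141 CPM in anagen, catagen and telogen, so *CLDN4* was highest in anagen and *PERP* in telogen.

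The desmosomal cadherins differed in the classes that held them. *DSG1* and *DSC1* were higher in suprabasal-like and inner-root-sheath-like cells than in basal-like cells, and *DSG2* and *DSG3* were lower. *DSG4* was held mostly by cortex-like cells, and *DSC2* fell in none of these groups. *DSG1* (ENSBGRG00000023015), a desmoglein of differentiating epidermis, measured 416 CPM in anagen, 763 in catagen and 566 in telogen over all cells. It led in suprabasal-like cells of each library, at 909.9, 2043 and 1200.050 CPM, against 221, 278 and 274 in basal-like cells and 133, 53.3 and 166 in cluster 22. On the log2 scale, after the median ratio of all genes with a mean of at least 10 CPM had been taken off, suprabasal-like over basal-like cells came to 2.17, 2.79 and 2.22. Inner-root-sheath-like cells were also above basal-like cells (1.48, 1.54 and 1.28), whereas cortex-like cells were below (-0.999, -1.78 and -1.35).

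*DSC1* (ENSBGRG00000023106), the desmocollin that accompanies *DSG1* in upper epidermis, was held even more by these classes. It measured 67.8 CPM in anagen, 137 in catagen and 79.9 in telogen over all cells, and 195, 578 and 277 CPM in suprabasal-like and 145, 271 and 115 CPM in inner-root-sheath-like cells against 24.8, 24.5 and 35.01 CPM in basal-like cells. The log2 ratios of suprabasal-like over basal-like cells were 3.09, 4.47 and 3.07. In cortex-like cells (8.91, 6.53 and 13.4 CPM) and in *LHX2* *SPARC* cells (10.4, 12.9 and 11.01 CPM) it lay near the level of cluster 22. That level (16.7, 8.88 and 10.6 CPM) rests on few UMIs and is only a rough background. Of the 2 *LHX2* *SPARC* clusters, cluster 7 held 15.8, 20.3 and 19.2 CPM and cluster 3 held 6.18, 6.92 and 4.90 CPM.

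*DSG2*, a desmoglein of simple and basal epithelium, ran the other way. Over all cells the libraries hardly differed (101 CPM in anagen, 97.2 in catagen and 106 in telogen). Basal-like cells held 193, 155 and 186 CPM and *LHX2* *SPARC* cells 173, 153 and 173, while suprabasal-like cells held 30.95, 15.8 and 32.3, below the 60.4, 26.6 and 45.97 CPM of cluster 22. The log2 ratios of suprabasal-like, inner-root-sheath-like and cortex-like cells over basal-like cells were -2.52, -3.39 and -2.44, then -2.36, -2.97 and -2.697, then -1.998, -2.16 and -2.29, so all 9 values were below -1.

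*DSG3*, the desmoglein of lower epidermal layers, measured 23.8 CPM in anagen, 35.2 in catagen and 38.2 in telogen. It was low in suprabasal-like cells (7.81, 2.44 and 13.4 CPM) and in inner-root-sheath-like cells (4.04, 5.42 and 5.97 CPM) and higher in basal-like (29.1, 32.7 and 51.3 CPM), cortex-like (50.6, 92.9 and 51.5 CPM) and *LHX2* *SPARC* cells (56.8, 81.8 and 64.4 CPM). Its highest levels among groups of at least 50 cells in catagen and telogen were in cluster 16, which has no name and has *FGF18* and the companion layer keratin *KRT75* among its leading genes, at 171 and 156 CPM. Among the named classes and the clusters without a name, cluster 16 also had the highest *DSP* in those 2 libraries, at 6544 and 3070 CPM. Cluster 19 of the suprabasal-like class by itself held more *DSP*, at 7898 and 3123 CPM, with intervals that meet in telogen.

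*DSG4* (ENSBGRG00000022932), the desmoglein of the hair shaft, was the member held most by a single class. Only 400, 205 and 159 UMIs were counted in whole libraries (4.83, 3.98 and 1.54 CPM), of which 297, 163 and 139 lay in cortex-like cells. There it stood at 77.8 CPM (95% interval 69.2 to 87.2) in anagen, 118 CPM (95% interval 101 to 138) in catagen and 60.2 CPM (95% interval 50.6 to 71.1) in telogen. Of the other named classes with at least 50 cells, none exceeded the 5.88 CPM of catagen inner-root-sheath-like cells apart from 6.46 CPM in the 50 telogen immune-like cells, which is 1 UMI. Cortex-like cells were 3.56%, 1.92% and 1.12% of the kept cells, in the same order as the library levels, and the part of their number in those levels was not tested.

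*DSC2*, the desmocollin found throughout the epidermis, differed less between layers. It measured 338 CPM in anagen, 539 in catagen and 389 in telogen, with 351, 391 and 410.5 CPM in basal-like and 217, 348 and 272 in suprabasal-like cells. Log2 ratios of suprabasal-like over basal-like cells were -0.57, -0.25 and -0.50. These are for the whole class, in which cluster 19 held only 86.2, 152 and 124 CPM, against 229, 407 and 285 in cluster 5. The keratinocyte-like cells with *SPINK9* and kallikreins led the named classes in each library, at 587, 1245 and 526 CPM.

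**Figure D2:**
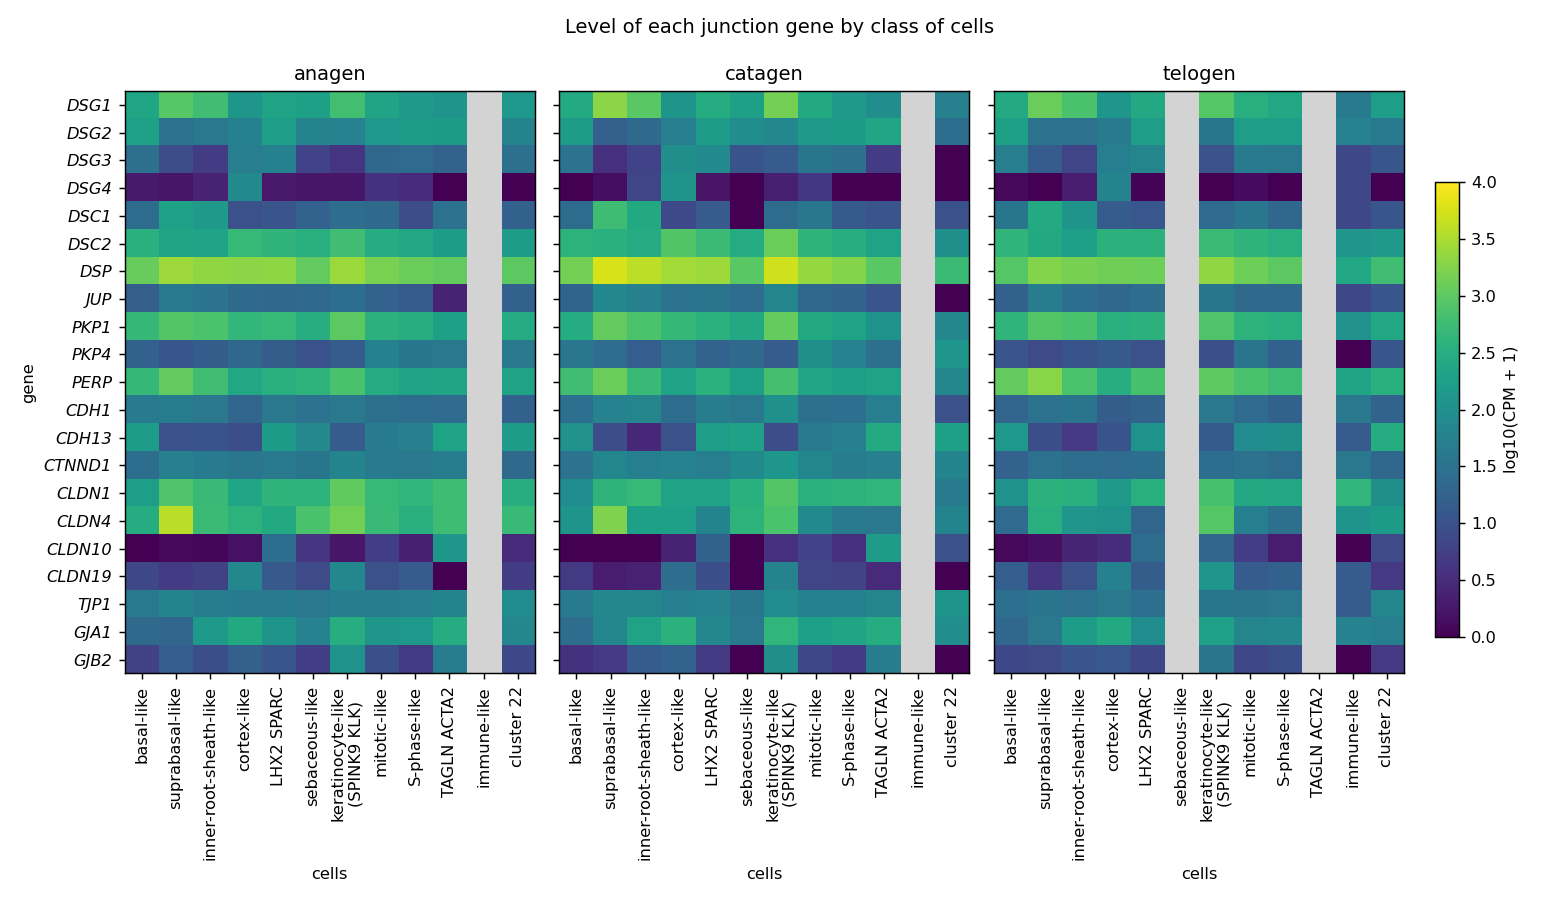
Level of 21 junction genes as log10(CPM + 1) in 11 classes of cells and in cluster 22, for the anagen, catagen and telogen library, with grey where a class has under 50 cells in that library. *DSG1* and *DSC1* are bright in suprabasal-like cells and *DSG4* in cortex-like cells alone (77.8, 118 and 60.2 CPM). *CLDN10* is bright in *TAGLN* *ACTA2* cells of anagen and catagen (grey in telogen) and less so in *LHX2* *SPARC* cells. For *CLDN10* in telogen, keratinocyte-like cells (20.3 CPM) come near the *LHX2* *SPARC* cells (24.8 CPM).

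RefSeq annotation of the yak assembly Bosgru_T2T1.0 places *DSG3*, *DSG4*, *DSG1*, *DSC1*, *DSC2*, *DSC3* and *CDH2* next to one another in this order among protein-coding genes. The neighbours *DSG4* and *DSG1* led in different classes, cortex-like and suprabasal-like, and the neighbours *DSG1* and *DSC1* in the same class. The files do not state their genome build, so only the order of the genes was used.

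Among the plaque genes, *DSP*, which encodes desmoplakin and links desmosomes to keratin, measured 2069 CPM in anagen, 3409 in catagen and 1499 in telogen. Suprabasal-like cells stood at 2598, 5797 and 1824 CPM against 1177, 1441 and 884 in basal-like cells, with log2 ratios of 1.26, 1.92 and 1.14. *DSP* was counted in every group, also in cluster 22 (989, 533 and 601 CPM). The lowest level among groups of at least 50 cells in any library was 252 CPM in telogen immune-like cells.

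*JUP*, which encodes plakoglobin, measured 28.2 CPM in anagen, 43.9 in catagen and 32.4 in telogen and 40.95, 73.7 and 46.2 CPM in suprabasal-like cells against 15.0004, 18.7 and 16.7 in basal-like cells (log2 ratios 1.57, 1.89 and 1.56). *PKP1*, the plakophilin of the upper layers, measured 582 CPM in anagen, 585 in catagen and 522 in telogen, with log2 ratios of 1.003, 1.75 and 1.12 between the same classes. *JUP* and *PKP1* were thus higher in suprabasal-like than in basal-like cells of each library, together with *DSP*, *DSG1* and *DSC1*. Taken as a whole class, suprabasal-like cells were not highest in *PKP1*, however. Cluster 9, which has no name, led with 1077 CPM in anagen and 888 in telogen, and keratinocyte-like cells with 1139 in catagen. Cluster 19 of the suprabasal-like class by itself held 1189, 1444 and 1295 CPM, more than the leading group in each library. The summed basal-like markers of cluster 9 were 49592, 48402 and 58361 CPM, above the 32828, 33077 and 44869 of basal-like cells.

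*PKP4*, a plakophilin relative also known at adherens junctions and in dividing cells, had another pattern. It measured 21.7 CPM in anagen, 29.998 in catagen and 11.97 in telogen, and mitotic-like cells led the named classes in each library with 56.97, 97.8 and 33.1 CPM, followed in anagen by the *TAGLN* *ACTA2* cells (38.6 CPM) and in catagen by S-phase-like cells (58.7 CPM). Between the mitotic-like clusters, cluster 8 had 71.3, 99.2 and 37.9 CPM and cluster 11 23.6, 72.6 and 19.1 CPM. Basal-like cells stood at 16.4, 36.3 and 10.4 CPM. Cluster 22 stood at 39.6, 124 and 10.6 CPM on 19, 14 and 3 UMIs, in catagen above the mitotic-like cells.

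*PERP* (ENSBGRG00000014011), a membrane protein of desmosomes and a target of p53 family factors, measured 556 CPM in anagen, 586 in catagen and 1141 in telogen. Suprabasal-like cells led in each library with 1106, 1249 and 1918 CPM, against 456, 593 and 1104 in basal-like and 238, 209.7 and 307 in cortex-like cells. Log2 ratios over basal-like cells were 1.398, 0.99 and 0.89 for suprabasal-like and -1.16, -2.04 and -2.05 for cortex-like cells, so *PERP* was lower in the cortex-like cells by more than 2-fold in each library.

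Of the classical cadherins, *CDH1* (E-cadherin, the adherens junction cadherin of epithelia) was not past 2-fold in all 3 libraries in any of the 4 classes set against basal-like cells. It measured 40.9 CPM in anagen, 56.5 in catagen and 28.8 in telogen, 42.9, 28.3 and 18.9 CPM in basal-like cells and 48.3, 59.3 and 31.1 CPM in suprabasal-like cells, against 16.7, 8.88 and 17.7 CPM in cluster 22. Cortex-like cells were lowest among the 4 classes set against basal-like cells (-1.404, -0.74 and -0.65 on the log2 scale).

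*CDH13* (T-cadherin, which is anchored by a lipid and lacks the part that binds catenins) was higher in basal-like than suprabasal-like or cortex-like cells. It measured 55.6 CPM in anagen, 65.8 in catagen and 59.4 in telogen. Basal-like cells held 155, 106 and 133 CPM, *LHX2* *SPARC* cells 149.6, 166 and 112 and *TAGLN* *ACTA2* cells 206, 275 and 164, but suprabasal-like cells 9.27, 7.88 and 8.01 and cortex-like cells 8.12, 8.71 and 9.96. The log2 ratios of suprabasal-like over basal-like cells were -3.94, -3.83 and -3.96. Other groups were high too, with 191 CPM in catagen sebaceous-like cells (56 cells) and 294 CPM in telogen cluster 22. Within the *LHX2* *SPARC* cells, cluster 3 (*SFRP1* and *CXCL14* among its leading genes) held 190.3, 223 and 123 CPM and cluster 7 (*PTHLH*) 97.7, 94.4 and 97.3.

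*CTNND1*, which encodes p120 catenin and steadies cadherins at the membrane, measured 45.8 CPM in anagen, 58.8 in catagen and 27.4 in telogen, and 54.2, 66.3 and 29.9 CPM in suprabasal-like cells against 26.7, 31.9 and 17.2 CPM in basal-like cells. *TJP1*, which encodes the scaffold ZO-1 of tight junctions, measured 51.4 CPM in anagen, 60.6 in catagen and 33.4 in telogen. Its log2 ratios over basal-like cells lay between -0.33 and 0.71 in the suprabasal-like, inner-root-sheath-like, cortex-like and *LHX2* *SPARC* cells of all libraries, and only *CTNND1* spanned a smaller range among the 21 genes. In cortex-like cells its sign in anagen and catagen turned without the centring, as it did in telogen *LHX2* *SPARC* cells. Cluster 22 stood at 87.4, 115 and 67.2 CPM, above basal-like cells in each library.

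Among the claudins, *CLDN4* (ENSBGRG00000013079), a barrier claudin of upper epidermis, measured 1675 CPM in anagen, 556 in catagen and 254 in telogen. Suprabasal-like cells stood at 3831, 1686 and 322 CPM against 299.5, 116 and 23.7 in basal-like cells. For the class as a whole the log2 ratios hardly varied between libraries (3.798, 3.77 and 3.86) although the levels did. This did not hold for its single clusters, which also changed in share. From anagen to telogen, cluster 5 went from 3596 to 179 CPM and cluster 19 from 7852 to 1885 CPM. Cluster 10 has no name and has *KRT23* and *CNFN* among its leading genes. It held more (6396, 1959.6 and 1692 CPM) than the suprabasal-like class as a whole in each library. Cluster 19 stood above cluster 10 in each library, with 4195 CPM in catagen. Cluster 2 (*KRT79* and *KRT17*) held 4195, 1272 and 293 CPM, above the suprabasal-like cells in anagen only. Among the named classes, suprabasal-like cells led in anagen and catagen, and keratinocyte-like cells led in telogen with 889 CPM. Cluster 22 held 493, 62.2 and 152 CPM. *LHX2* *SPARC* (270.3, 63.4 and 19.2 CPM) and S-phase-like cells (326, 44.1 and 28.6 CPM) were near or below the level of cluster 22, as were basal-like cells except in catagen.

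*CLDN1*, the claudin needed for the epidermal water barrier, measured 586 CPM in anagen, 319.8 in catagen and 317 in telogen. It was higher in suprabasal-like (789, 397 and 372 CPM) and inner-root-sheath-like cells (494, 485 and 348 CPM) than in basal-like cells (170.2, 87.2 and 110.016 CPM), with log2 ratios of 2.33, 2.099 and 1.85 for the suprabasal-like cells. The keratinocyte-like cells led the named classes in each library at 1057, 836 and 689 CPM. *LHX2* *SPARC* cells were also above basal-like cells (1.15, 1.07 and 1.505), but in anagen this turned to -0.16 with no integration of the libraries and to -0.12 with cluster 0 counted as basal-like.

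*CLDN10* (ENSBGRG00000020047), a claudin that forms ion-selective pores, was highest in *TAGLN* *ACTA2* cells, at 131, 159 and 240.4 CPM, on 92, 77 and 72 UMIs (37 cells in telogen). *LHX2* *SPARC* cells held 26.8, 16.7 and 24.8 CPM. Within the latter, cluster 3 held 47.9, 29.9 and 43.3 CPM and cluster 7 0, 0.278 and 0 CPM. Basal-like and suprabasal-like cells held 0, 0 and 0.217 and 0.219, 0 and 0.445 CPM. The keratinocyte-like cells of telogen held 20.3 CPM, against 0.748 in anagen and 2.45 in catagen.

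*CLDN19*, a claudin best known from kidney and eye, measured 14.6 CPM in anagen, 9.702 in catagen and 18.5 in telogen. Its levels were highest in keratinocyte-like (72.6, 59.5 and 119 CPM) and cortex-like cells (68.9, 26.1 and 56.7 CPM), and the cortex-like cells were above basal-like cells by 3.23, 2.22 and 1.76 on the log2 scale. Cluster 9, which has no name and has *TPM1* and *S100A2* among its leading genes, held 48.7, 35.1 and 32.2 CPM, and in catagen stood above the cortex-like cells. Suprabasal-like cells held 3.87, 1.003 and 3.34 CPM and cluster 22 4.16, 0 and 3.54 CPM.

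Of the connexins, *GJA1* (connexin 43, the main gap junction protein of skin) measured 102 CPM in anagen, 115 in catagen and 79.5 in telogen. It was low in basal-like cells (22.97, 26.1 and 21.3 CPM) and higher in inner-root-sheath-like (143, 198 and 154 CPM) and cortex-like cells (273, 376 and 269.8 CPM), both above cluster 22 (70.8, 88.8 and 49.5 CPM). *LHX2* *SPARC* cells held 118, 69.1 and 86.2 CPM, in catagen close to suprabasal-like cells (68.5 CPM) and below cluster 22, and their cluster 7 held 60.7, 42.9 and 50.6 CPM. Log2 ratios over basal-like cells were 2.67, 2.700 and 2.78 for inner-root-sheath-like and 3.35, 3.301 and 3.46 for cortex-like cells. Keratinocyte-like cells (308, 426 and 192 CPM) and cluster 9 (303, 391 and 313 CPM) were as high as cortex-like cells or higher, except the telogen keratinocyte-like cells. Summed basal-like markers were higher in cluster 9 (49592, 48402 and 58361 CPM) than in basal-like cells (32828, 33077 and 44869 CPM). Low *GJA1* thus did not hold for every group with basal-like markers.

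*GJB2* (ENSBGRG00000012195, connexin 26, a connexin of follicle and activated epidermis) measured 12.8 CPM in anagen, 9.37 in catagen and 9.37 in telogen. Keratinocyte-like cells stood at 107, 93.2 and 33.5 CPM, *TAGLN* *ACTA2* cells at 48.6, 47.5 and 73.5 and cluster 9 at 40.8, 41.5 and 30.6. No other group of at least 50 cells passed 20 CPM in any library. Suprabasal-like cells held 14.6, 3.58 and 7.57 CPM, below those 3 groups in each library.

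The counts over all members put these patterns together. A member is called past 2-fold when its log2 ratio, centred on the median of all genes tested, is beyond 1 or -1, and for classes this had to hold in each of the 3 libraries. For suprabasal-like over basal-like cells, 16 members had a mean of at least 10 CPM in every library. Of these, 7 were higher (*CLDN1*, *CLDN4*, *DSC1*, *DSG1*, *DSP*, *JUP* and *PKP1*), where 5.05% of 4360 genes were, and 3 were lower (*CDH13*, *DSG2* and *DSG3*), where 4.68% were. *PKP1* in anagen lay at the boundary (1.003, 1.75 and 1.12). *PERP* was left out by its catagen and telogen values (1.398, 0.99 and 0.89).

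In inner-root-sheath-like cells, 4 of 17 members tested were higher than in basal-like cells in each library (*CLDN1*, *DSC1*, *DSG1* and *GJA1*), against 7.52% of 4492 genes, and the same 3 as above were lower, against 10.3%. In cortex-like cells 3 of 19 were higher (*CLDN19*, *DSG4* and *GJA1*), against 7.8% of 4703 genes, and 4 were lower (*CDH13*, *DSC1*, *DSG2* and *PERP*), against 10.9%. In *LHX2* *SPARC* cells 2 of 16 were higher (*CLDN1* and *GJA1*), against 3.79% of 4617 genes, and 1 was lower (*DSC1*), against 2.12%. The median log2 ratio of the members tested in a library was 1.07, 0.99 and 0.90 in suprabasal-like cells, and 0.11, 0.25 and -0.12 in *LHX2* *SPARC* cells, where the median over all genes tested is 0 by construction.

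**Figure D3:**
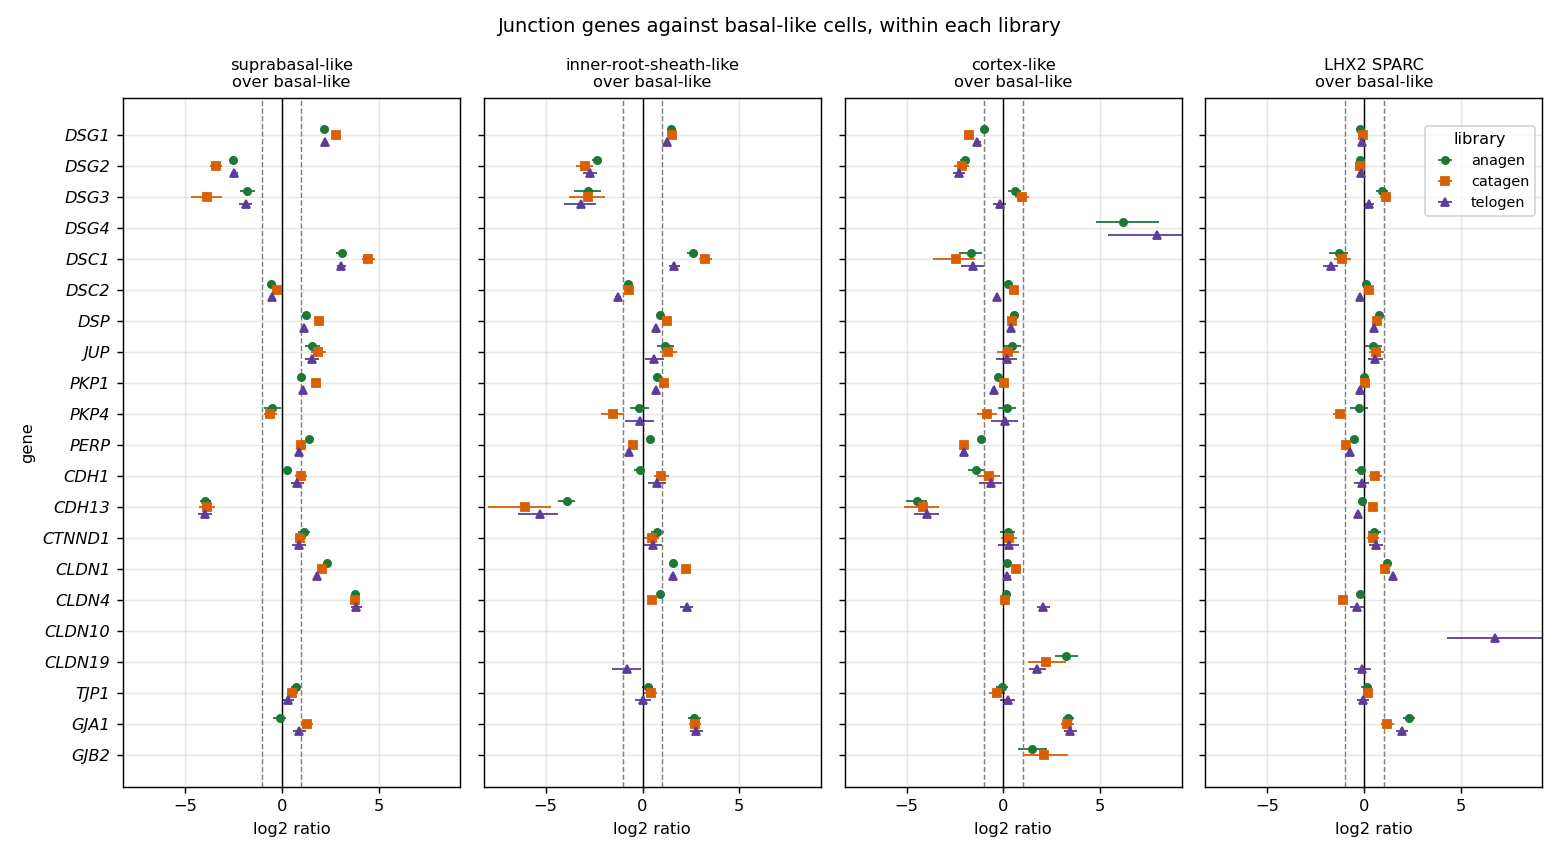
Log2 ratio of suprabasal-like, inner-root-sheath-like, cortex-like and *LHX2* *SPARC* cells over basal-like cells, centred on the median of all genes tested, in each library, for junction genes with a mean of at least 10 CPM. Bars are 95% intervals for counting error and dashed lines mark 2-fold. In suprabasal-like cells *DSG1*, *DSC1* and *CLDN4* lie to the right of 2-fold in each library and *DSG2*, *DSG3* and *CDH13* to the left.

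The suprabasal-like class holds 3 clusters, and junction genes differed between them. Cluster 19 (126, 153 and 63 cells), led by *KRT77* and *KRT2*, keratins of upper layers, had 1581, 3267 and 2591 CPM of *DSG1*, against 846, 1753 and 1104 in cluster 5 (*S100A7* and *S100A12* among its leading genes) and 686, 1199 and 772 in cluster 14 (*SEMA3C*). *DSC1* had the same order, with 368, 917 and 631 CPM, then 175, 496 and 244, then 169, 354 and 229. *DSC2* was lowest in cluster 19, at 86.2, 152 and 124 CPM against 229, 407 and 285 in cluster 5. Between clusters 5 and 19 the desmocollins thus differed in opposite directions in each library.

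*CLDN4* stood at 7852, 4195 and 1885 CPM in cluster 19, 3596, 1054 and 179 in cluster 5 and 1006, 434 and 92.3 in cluster 14. *DSG2* stood at 10.5, 3.38 and 7.44, 33.2, 19.4 and 34.8 and 34.4, 15.6 and 34.4 CPM in the same clusters. The median UMI count per cell over all libraries also differed, with 10365.5 in cluster 19, 7628 in cluster 5 and 2563 in cluster 14, and its part in these differences was not tested. CPM is scaled to the summed UMIs of the cluster.

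**Figure D4:**
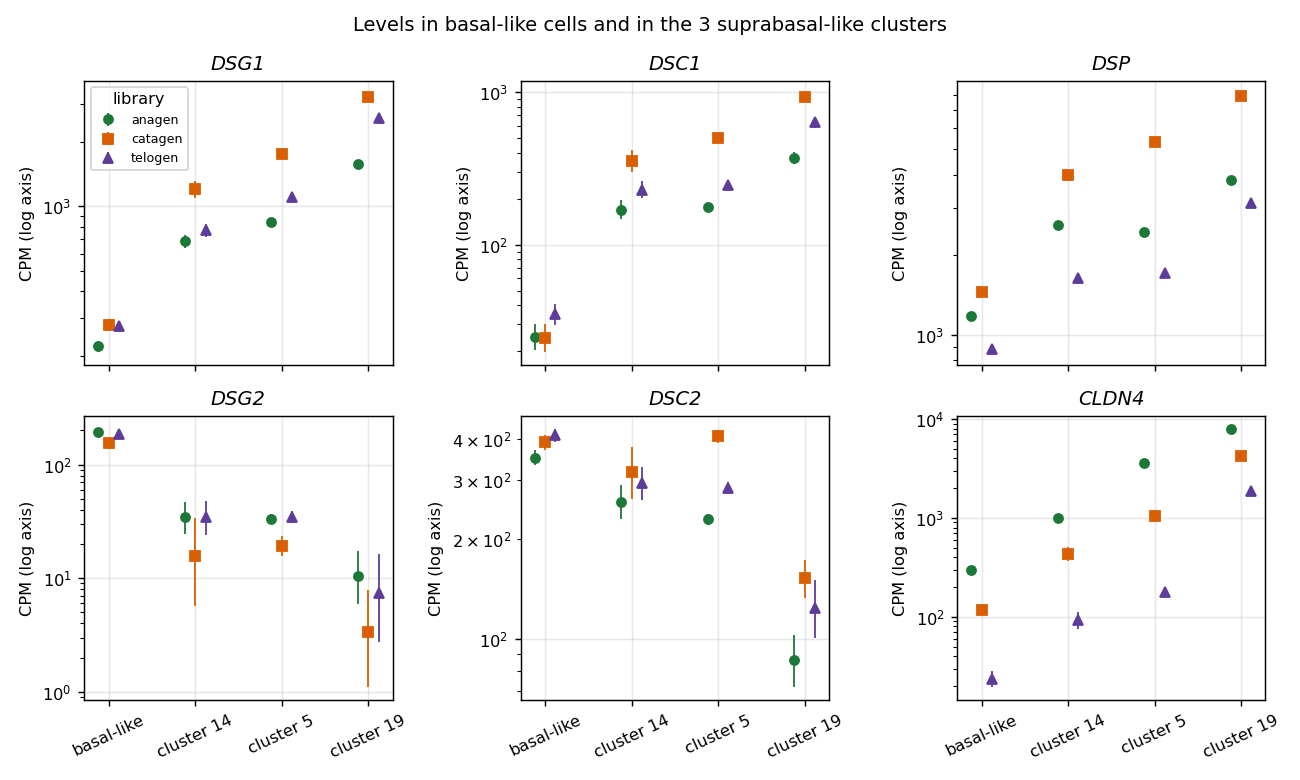
Levels of 6 junction genes (CPM on log axes that differ between panels) in basal-like cells and in suprabasal-like clusters 14, 5 and 19, with 95% Poisson intervals, for the anagen, catagen and telogen library. The order of the clusters was chosen for display. *DSG1* and *DSC1* are highest and *DSG2* and *DSC2* lowest in cluster 19 of every library.

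Between the stages, most members differed by less than 2-fold over whole libraries. In catagen over anagen, 0 of 20 members tested were past 2-fold higher, against 3.21% of 5676 genes, and 2 were lower (*CLDN4* and *CDH23*), against 3.45%. In telogen over anagen, 1 of 20 was higher (*PERP*), against 4.22% of 5381 genes, and the same 2 were lower, against 4.98%. In telogen over catagen, 2 of 18 were higher (*PERP* and *CLDN19*), against 7.63% of 5506 genes, and 1 was lower (*PKP4*), against 5.67%. *DSC1* lay just inside the limit for catagen over anagen (0.99) and passed it under 6 of the other settings.

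The centring took off a median log2 ratio of 0.03 in catagen over anagen, -0.16 in telogen over anagen and -0.21 in telogen over catagen. Without it, telogen over catagen had 0 members higher and 4 lower. Of the named members tested, only *PKP1*, *CLDN1* and *CDH13* changed sign without it, each within 0.21 of 0. Between classes the median taken off ranged from -0.12 to 0.54.

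*CLDN4* had the largest stage difference among the members tested. Over whole libraries it measured 1675, 556 and 254 CPM, which gave centred log2 ratios of -1.62 (95% interval -1.64 to -1.601) for catagen over anagen, -2.56 (95% interval -2.57 to -2.54) for telogen over anagen and -0.92 (95% interval -0.94 to -0.90) for telogen over catagen. Within suprabasal-like cells the ratios were -1.22, -3.41 and -2.15, from levels of 3831, 1686 and 322 CPM. All 8 classes with at least 100 cells in each library (4 of them made of several clusters, whose mix differed between libraries) were below 0 for catagen over anagen (-2.99 to -1.12) and for telogen over anagen (-3.63 to -0.56).

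The keratinocyte-like cells had the smallest of these differences, -0.56 for telogen over anagen, and stood higher in telogen than in catagen (0.62). Cluster 22, whose cells differed between libraries, was also highest in anagen (493, 62.2 and 152 CPM). The level read as background was thus not the same across libraries. The part of background in the ratios within basal-like, *LHX2* *SPARC* and S-phase-like cells was not tested. Immune-like cells stood at 1455, 631 and 116 CPM, on 18, 17 and 50 cells. Their summed immune markers were only 512 CPM in anagen, against 12536 in catagen and 11388 in telogen, so the anagen cells are weakly marked. These cells held more *CLDN4* than cluster 22 in catagen (631 against 62.2 CPM) and less in telogen (116 against 152 CPM). The level read as background thus depends on the group chosen. Suprabasal-like cells stood above cluster 22 in each library, with 3831 against 493 CPM in anagen.

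*CLDN1*, the other well-measured claudin, was also highest in anagen. Centred log2 ratios were -0.90 (95% interval -0.93 to -0.88) for catagen over anagen and -0.72 (95% interval -0.74 to -0.70) for telogen over anagen, and all 8 classes lay below 0 in both (-1.03 to -0.08, and -0.93 to -0.08). In cluster 22 it stood at 308, 44.4 and 95.5 CPM. *CLDN19* was highest in telogen, with 0.51 (95% interval 0.40 to 0.61) over anagen and 1.14 (95% interval 0.998 to 1.29) over catagen. Without the centring the latter was 0.93. For telogen over catagen *CLDN1* lay on the same side, at 0.20.

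*PERP* was higher in telogen. Its centred log2 ratio was 1.204 (95% interval 1.19 to 1.22) over anagen and 1.17 (95% interval 1.15 to 1.19) over catagen, while catagen and anagen were level (0.05). All 8 classes lay above 0 in telogen over anagen (0.41 to 1.55) and in telogen over catagen (0.74 to 2.04). The highest of these values are from S-phase-like and mitotic-like cells, whose clusters differed in share. The S-phase-like clusters 13 and 17 had 410 and 170 cells in anagen, 349 and 71 in catagen and 124 and 270 in telogen, and *PERP* stood at 171, 153 and 207 CPM in cluster 13 and 305, 342 and 715 CPM in cluster 17. The mitotic-like clusters 8 and 11 held 243, 196 and 565 and 410.4, 709 and 1122 CPM, so *PERP* was highest in telogen in each of these 4 clusters. Basal-like cells held 456, 593 and 1104 CPM and cluster 22 held 202, 71.1 and 347 CPM. Cluster 22 was thus also highest in telogen, and the part of background was not tested.

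Several desmosomal genes were highest in catagen. *DSP* was at 0.69 (95% interval 0.68 to 0.70) for catagen over anagen and -0.98 (95% interval -0.99 to -0.97) for telogen over catagen. *DSC1* was at 0.99 (95% interval 0.94 to 1.04) and -0.57 (95% interval -0.62 to -0.53), and *DSG1* at 0.85 (95% interval 0.83 to 0.87) and -0.22 (95% interval -0.24 to -0.20). *DSC2* (0.65 and -0.26) and *JUP* (0.61 and -0.23) had the same signs, whereas *DSG2* (-0.08 and 0.33), *DSG3* (0.54 and 0.33) and *PERP* did not, and *PKP1* hardly differed between libraries (582, 585 and 522 CPM).

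Within suprabasal-like cells, *DSP* stood at 2598, 5797 and 1824 CPM (1.12 for catagen over anagen), *DSG1* at 909.9, 2043 and 1200.050 (1.13), *DSC1* at 195, 578 and 277 (1.54) and *PKP4* at 10.8, 25.5 and 7.12 (1.21). *DSG2* went the other way there, with 30.95, 15.8 and 32.3 CPM (-1.01). Suprabasal-like *GJA1* was also highest in catagen, 19.6, 68.5 and 37.3 CPM, with 1.77 (95% interval 1.55 to 1.99) for catagen over anagen and 1.09 (95% interval 0.85 to 1.32) for telogen over anagen. In cluster 22 *GJA1* stood at 70.8, 88.8 and 49.5 CPM, above these cells in each library, and whether that level is background was not tested.

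*DSP* was above 0 in all 8 classes for catagen over anagen (0.34 to 1.12) and below 0 in all 8 for telogen over anagen (-0.50 to -0.07) and telogen over catagen (-1.44 to -0.44). *CTNND1* and *TJP1* had the same sides in all 8 classes and all 3 comparisons. For telogen over anagen *CTNND1* ranged from -1.09 to -0.37 and *TJP1* from -0.69 to -0.02. Of 14 named members tested in all 8 classes, 5 lay above 0 in every class for catagen over anagen (*CTNND1*, *DSC2*, *DSP*, *JUP* and *TJP1*). Another 2 lay below 0 in every class (*CLDN1* and *CLDN4*). The lowest values of *JUP* and *TJP1* were close to 0, at 0.08 and 0.02. The share of all genes on 1 side in every class was not computed, so these counts are a description only.

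*DSG1* was above 0 in all 8 classes for telogen over anagen, from 0.16 to 0.88, though its lowest value, in cortex-like cells, turned to -0.05 without the centring. Its highest value is from S-phase-like cells with their changed mix of clusters, and *DSG1* stood at 127, 104 and 119 CPM in cluster 13, no higher in telogen than in anagen, and at 193, 344 and 297 CPM in cluster 17. *PKP4* was below 0 in all 8 for telogen over catagen (-1.804 to -0.31), including mitotic-like cells (56.97, 97.8 and 33.1 CPM, -1.19 (95% interval -1.41 to -0.96)). All 8 classes come from the same 3 libraries and are not separate evidence.

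Over the 8 classes, pairs of a member and a class were counted. For catagen over anagen, 10 of 143 pairs were past 2-fold higher, where 4.87% of all pairs of a gene and a class were, and 13 were lower, where 5.14% were, 8 of them *CLDN4*. For telogen over anagen, 11 of 149 were higher, against 4.94%, and 13 were lower, against 5.7%. For telogen over catagen, 13 of 145 were higher, against 9.41%, and 18 were lower, against 7.78%.

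**Figure D5:**
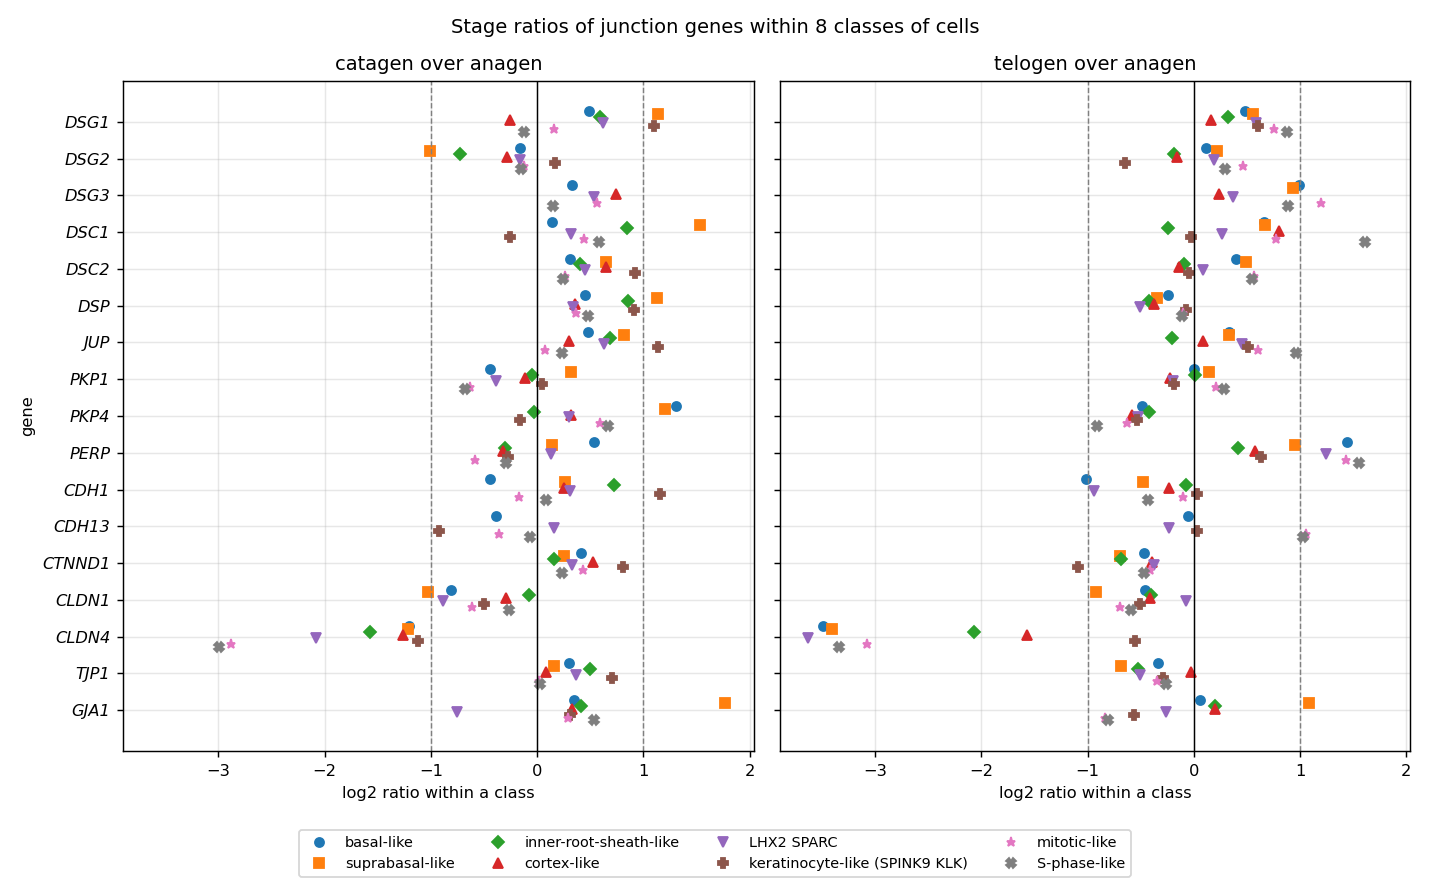
Centred log2 ratio of catagen over anagen (left) and telogen over anagen (right) within each of 8 classes of cells, for 17 junction genes, shown where the mean was at least 10 CPM, with dashed lines at 2-fold and 1 library per stage. *CLDN4* lies left of 0 in every class in both panels (-2.99 to -1.12 and -3.63 to -0.56), and *PERP* right of 0 in every class for telogen over anagen.

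*CDH23*, a long cadherin best known from hair cells of the ear, is not among the 21 genes and is named because it passed 2-fold. It measured 15.96 CPM in anagen, 6.66 in catagen and 4.64 in telogen, with -1.29 (95% interval -1.47 to -1.12) for catagen over anagen and -1.62 (95% interval -1.77 to -1.47) for telogen over anagen. Cluster 9, which has no name, held most of it per UMI in each library, at 94.3, 46.1 and 29.1 CPM.

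Of the other 50 members, 11 had at least 100 UMIs in a library, and those named here were chosen after their values had been seen. *GJC1* (connexin 45) was at 9.56, 6.99 and 4.27 CPM overall and led in *TAGLN* *ACTA2* cells in anagen and catagen and in S-phase-like cells in telogen (47.1, 35.1 and 14.2 CPM). *CLDN8* was at 1.52, 3.98 and 2.48 CPM and reached 57.6 CPM in cluster 16 in catagen. *TJP3* was at 5.54, 5.705 and 3.95 CPM and led in cluster 10 in each library (25.7, 24.4 and 12.8 CPM). *CDH3*, P-cadherin, was at 4.31, 4.54 and 2.75 CPM and led in *TAGLN* *ACTA2* cells in anagen and catagen, with 22.9 and 28.9 CPM on 16 and 14 UMIs.

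*GJB5*, a connexin of differentiating epidermis, was at 1.195, 4.97 and 2.72 CPM on 99, 256 and 281 UMIs, highest in catagen with intervals that do not meet. *PKP2*, *CLDN7* and *CLDN15* stood at 3.26 CPM or less in every library. At these levels differences between classes were mostly not detectable at this depth.

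Genes that work with the members were read from lists of 35, of which 30 have a row. In catagen over anagen, 16 were tested, 0 were past 2-fold higher and 1 was lower, *LSR*, a protein of junctions where 3 cells meet (35.2, 17.7 and 26.4 CPM, -1.02). In telogen over anagen 0 of 16 were past 2-fold either way. In telogen over catagen 0 of 16 were higher and 3 were lower: the plakins *PPL* (33.3, 49.5 and 17.2 CPM, -1.31) and *EVPL* (18.99, 32.2 and 11.8 CPM, -1.24), which join desmosomes to the cornified envelope, and *MAGI3* (13.5, 24.7 and 9.12 CPM, -1.23). The shares over all genes are those given above for each comparison.

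By class, *NECTIN1*, an adhesion protein of adherens junctions, was past 2-fold higher than in basal-like cells in suprabasal-like, inner-root-sheath-like and cortex-like cells of each library. *CTNNB1*, which encodes beta-catenin, was past 2-fold higher in cortex-like cells (1.17, 1.75 and 1.35). *CTNNAL1*, a relative of alpha-catenin, was past 2-fold lower in the same 3 classes, with -3.43, -3.25 and -3.64 in cortex-like cells. In all, 3 of 13 partners tested were higher in suprabasal-like cells (*NECTIN1*, *NECTIN2* and *KAZN*), against 5.05% of all genes tested. In inner-root-sheath-like cells 3 of 15 were higher (*AFDN*, *NECTIN1* and *TGM1*), against 7.52%. The counts were 2 of 13 in cortex-like cells, against 7.8%, and 0 of 12 in *LHX2* *SPARC* cells, against 3.79%. In the same order 1, 1, 1 and 0 were lower, against 4.68%, 10.3%, 10.9% and 2.12%.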

How the data were processed

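Scapular skin of the yak was profiled in 3 single-cell libraries. The authors deposited raw UMI counts per gene and cell as Cell Ranger wrote them, with no normalization. The submitters' processing notes name Cell Ranger 2.1.1, whereas per the file headers the versions were 4.0.0, 3.1.0 and 6.0.2. Genome build and annotation are not given in the sources used here. Cells with at least 200 genes were kept, integrated in Seurat 5.3.0 (R 4.3.3) with 2000 variable genes less the members, 30 principal components, 20 neighbours and resolution 0.8, and clustered into 26 clusters. A cluster took the name of the marker list with the highest mean fold, if 3 markers were raised 1.5-fold, 1 was among its 10 leading genes and no rival list did as well. This rule was set after the clusters had been seen. Of 107 markers, 88 have a row. Doublets were left in, since Scrublet at its own threshold marked 0 cells. Counts were summed per library or class, and ratios were centred on the median of genes with a mean of at least 10 CPM. Levels carry exact Poisson and ratios exact binomial (Clopper-Pearson) 95% intervals, which cover counting error only. No test and no p-value was possible with 1 library per stage. Members described one by one reach 20 CPM in a library or 50 CPM in a class of 100 cells. The ratios were tested on simulated data. Members, markers and lists were chosen with earlier results of these data known. Python 3.11.15, scipy 1.17.1 and scanpy 1.11.5 were used. Other settings of filter, scaling, depth, doublets and clustering are given at the end. The values of some members are not reported here.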

Additional observations from a re-analysis of the deposited data

Results flagged for a closer look

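*DSC1* went in opposite directions between telogen and catagen in different classes of cells. Telogen over catagen was 1.06 on the centred log2 scale in S-phase-like cells, from 7.799, 12.5 and 21.1 CPM in anagen, catagen and telogen, and -1.07 in inner-root-sheath-like cells, from 145, 271 and 115 CPM. It is listed because the ratios within these classes were past 2-fold on opposite sides. With 1 library per stage the difference was not tested. The S-phase-like value goes with a changed mix of its clusters, since clusters 13 and 17 had 349 and 71 cells in catagen and 124 and 270 in telogen. *DSC1* stood at 5.396, 9.91 and 5.54 CPM in cluster 13 and 13.5, 25.1 and 28.6 CPM in cluster 17, so it was not 2-fold higher in telogen than in catagen within either cluster. The S-phase-like levels were below the 16.7 CPM of cluster 22 in anagen and above its 8.88 and 10.6 CPM in catagen and telogen. These cluster 22 levels rest on few UMIs.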

How the results depend on the processing

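No paired analysis was possible because each stage has 1 library. Counts were recomputed under 15 other settings, 3 of them (without the low-UMI cluster 1, cluster 0 counted as basal-like, and cells with at least the smallest anagen UMI total) chosen after seeing the data, and 201 of 249 counts stayed within 1.5 times. Whole-library counts (higher, then lower) moved as follows. With no filter on level they were 8 and 7 in catagen over anagen, 8 and 8 in telogen over anagen, and 5 and 6 in telogen over catagen, since genes with few UMIs then count. With a mean of at least 50 CPM they were 1 and 1 in catagen over anagen, 1 lower in telogen over anagen, and 0 and 2 in telogen over catagen, on fewer genes. With no shift taken off there was 1 higher in catagen over anagen, and 0 and 4 in telogen over catagen. The count higher in catagen over anagen also became 1, with *DSC1* past the limit, for cells with at least 1000 genes, with the highest Scrublet scores removed, without cluster 1 and with the smallest anagen UMI total, and telogen over catagen then had 3 lower for 1000 genes and 2 for the smallest anagen total. Between classes, the lower count of inner-root-sheath-like cells was 5 with no filter, and that of cortex-like cells 2 with 15 principal components or cluster 0 as basal-like. For *LHX2* *SPARC* cells the higher count was 1 without the highest Scrublet scores, at resolution 1.2 and with members kept among the variable genes, and 0 with cluster 0 as basal-like, and the lower count was 0 with no shift, 1000 genes, members kept or the smallest anagen total, and 2 without integration. Within classes, counts with no filter were 35 and 36, 35 and 34, and 41 and 41. Telogen over anagen had 17 and 22 when thinned to 1500 UMIs, telogen over catagen 8 and 37 with no shift, and catagen over anagen 6 higher at resolution 0.4. Without integration, catagen over anagen had 2 and 7, telogen over anagen 5 higher, telogen over catagen 5 higher, and 5 members instead of 10 had the same leading class in the 3 libraries. The cause of the other moves was not tested. Directions turned for *JUP* in inner-root-sheath-like over basal-like cells of anagen, -0.030 when thinned, and for *CLDN1* in *LHX2* *SPARC* over basal-like cells of anagen, -0.16 without integration and -0.12 with cluster 0 as basal-like. The cells under 1500 UMIs left out by thinning were 0, 2263 and 2932.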
